A study of Mus musculus with 9 samples.

Results

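Ephx1 and Ephx2, the genes of microsomal and soluble epoxide hydrolase, were followed through 9 single-cell libraries of mouse kidney by mouse, treatment group and cell type. They are 2 of the 32427 genes listed in the matrices. Ephx1 was selected on its difference in CPM between AKI-CKD and Control kidneys when all cells were summed, and Ephx2 was taken with it as the other main epoxide hydrolase. For this reason every value of Ephx1 or Ephx2 that sets AKI-CKD beside Control is a description of that choice and carries no test.

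The 9 kidneys came from male C57BL/6 mice, 6 weeks old, that were put in groups after a 1-week adaptation. The 3 Control mice received saline. The 3 AKI-CKD mice received 4 weekly intraperitoneal injections of cisplatin at 8 mg/kg, a platinum drug that damages renal tubules. The 3 AKI-CKD + EGT mice received the same injections. They also had ergothioneine (EGT), a diet-derived thiol antioxidant, at 0.5 mg/mL in the drinking water. EGT began 3 days before cisplatin and went on until the end of the study. Kidneys were taken after 8 weeks of the model, so the data describe 1 dose schedule and 1 time point in males. Transcripts were counted as UMIs (unique molecular identifiers, 1 per captured molecule), and cell types were named from marker genes.

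Epoxide hydrolases add water to an epoxide and turn it into a diol. Ephx1 sits in the endoplasmic reticulum and detoxifies reactive epoxides made by cytochrome P450 enzymes, beside the glutathione transferases. Ephx2 sits in the cytosol and in peroxisomes and breaks down epoxyeicosatrienoic acids, the P450 epoxides of arachidonic acid that dilate vessels and dampen inflammation in the kidney. Ephx1 is also known as a gene that xenobiotic sensors and the Nrf2 pathway can induce.

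The RefSeq start regions used held no entry for Ephx2, so only the start region of Ephx1 is shown. RefSeq places it at chr1:181017540-181017819 on the minus strand of GRCm38.p6, and the window runs from 250 bases before to 30 bases after the annotated start. Capitals mark the GC boxes (GGGCGG).

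Ephx1: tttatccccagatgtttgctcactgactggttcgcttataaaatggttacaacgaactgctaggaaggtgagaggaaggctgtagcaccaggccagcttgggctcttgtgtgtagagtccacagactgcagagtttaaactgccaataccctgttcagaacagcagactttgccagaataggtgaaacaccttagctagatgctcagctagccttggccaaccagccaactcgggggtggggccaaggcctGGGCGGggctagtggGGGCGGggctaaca

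Both strands were searched. The 2 GC boxes lie at bases 1 to 6 and 16 to 21 after the start, and 35.6% of 32817 mouse start regions in the RefSeq table hold at least 1. This share and those below are over regions somewhat longer than the 280 bases shown. A match to the CCAAT box (CCAAT) begins 108 bases before the start and 1 to the TATA box (TATAAA) 214 bases before it. The shares of start regions with a match are 37.4% and 13.6%. All of these are matches of letters, and whether any acts at this start was not tested. Neither an AP-1 site (TGACTCA, in 5.2% of start regions) nor the core of the antioxidant response element (TGACNNNGC, in 12.4%) occurs in these 280 bases, which says nothing of sites elsewhere.

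The libraries held 70106161 to 101525691 UMIs each, and 17196 to 27463 cells per mouse were kept after the limits on UMIs, genes and mitochondrial transcripts. The mitochondrial limit removed 0.909% to 27.7% of barcodes per library, with the top value in AKI-CKD + EGT mouse 3 and 17.0% in Control mouse 1. Cell names are numbered alike in every library, so 62337 of 98290 names recur, and cells were tracked by library. Of 196925 kept cells, 164687 were proximal tubule (PT) cells, and 10 of the 14 PT markers were at least 2-fold higher in them than in the other cells. Transcripts of PT markers were also present in every other cell type, which bears on Ephx2, and on Ephx1 outside PT cells, below.

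The 2 genes lay at opposite ends of the tubule's range. In CPM, the UMIs of a gene per 1000000 UMIs of the cell type, averaged over the 9 mice, Ephx1 was highest in endothelial cells at 125 ± 20.6 (SD, n = 9) and lowest in PT cells at 5.21 ± 4.24, whereas Ephx2 was highest in PT cells at 236 ± 28.3. A comparison of CPM between the genes themselves is not made, since it was not scaled by length.

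For Ephx1, the vessel and its support cells led the order of the 11 types compared. Stromal cells followed endothelial cells at 88.2 ± 30.3 CPM, and then came distal convoluted tubule (DCT) cells at 54.8 ± 30.3, principal cells of the collecting duct (CD-PC) at 45.5 ± 20.7 and intercalated cells (CD-IC) at 39.4 ± 16.4. B cells held 36.7 ± 12.8, cells of the loop of Henle (LOH) 30.5 ± 13.6 and cycling cells 20.4 ± 19.3. T cells, macrophages and PT cells closed the order at 14.7 ± 10.02, 10.1 ± 3.83 and 5.21 CPM. Podocytes were too few per mouse to be ranked and are not in this order. By mouse they ranged from 45.1 to 144 CPM in Control, 118 to 196 in AKI-CKD and 30.9 to 278 in EGT-treated mice.

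Neighbours in these orders were compared within mice by an exact two-sided sign-flip permutation test of log2(CPM + 1), adjusted over 20 pairs. For Ephx1, endothelial cells stood above stromal cells in 9 of 9 mice, stromal cells above DCT cells in 8 of 9 and macrophages above PT cells in 8 of 9 (exact test, adjusted p = 0.0391 for each). The other 7 neighbouring pairs did not differ beyond the spread between mice, so the order of neighbours from DCT to macrophages is not resolved. Types that are not neighbours were not tested against each other. At the ends of this span, DCT cells were at 22.7 CPM or more in every mouse and macrophages at 15.7 or less. With the same 20 pairs, 0 passed after thinning every cell to 1000 UMIs or after leaving out cells with the top doublet scores (exact adjusted p from 0.0521). When neighbours were ranked anew on the thinned levels, stromal above DCT cells for Ephx1 and PT above LOH cells for Ephx2 passed (9 of 9 mice each, exact adjusted p = 0.0391).

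**Figure D1:**
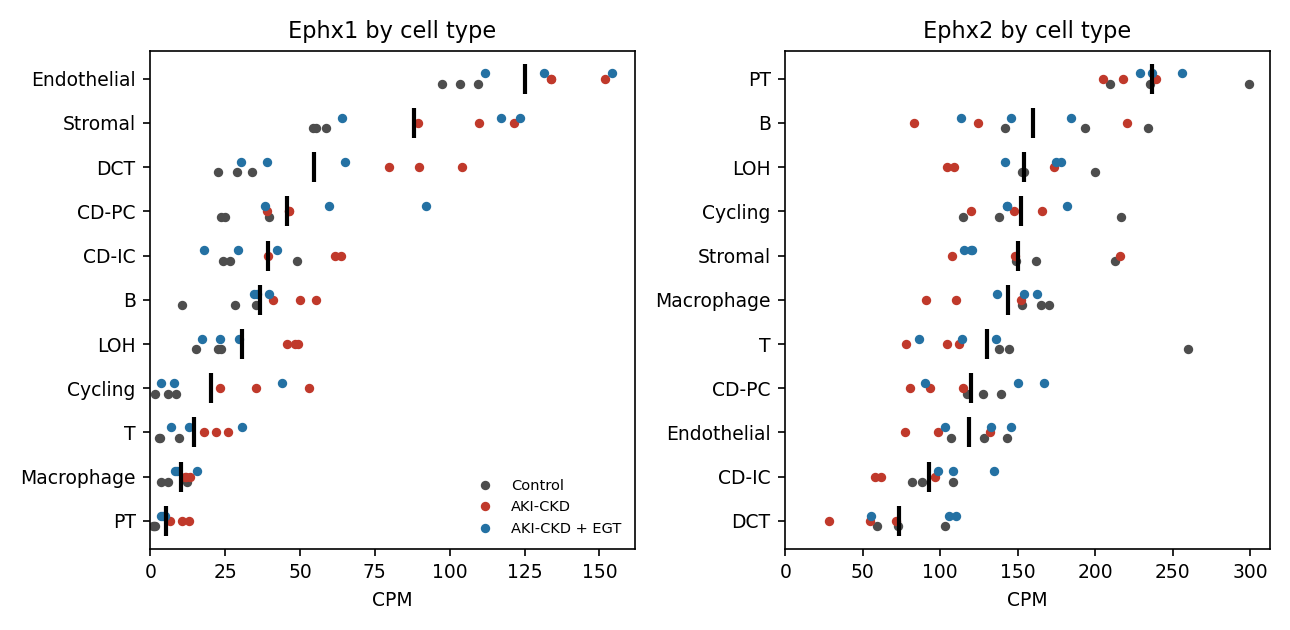
CPM of Ephx1 (left) and Ephx2 (right) in each named cell type, 1 point per mouse coloured by group, with a black bar at the mean of the 9 mice. Endothelial cells lead for Ephx1 at a mean of 125 CPM and PT cells come last at 5.21, while PT cells lead for Ephx2 at 236.

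For Ephx2, PT cells were followed by B cells at 160 ± 51.1 CPM, LOH cells at 154 ± 31.8, cycling cells at 152 ± 31.8 and stromal cells at 150 ± 40.8. Macrophages, T cells, CD-PC and endothelial cells lay between 144 and 119 CPM. CD-IC held 92.9 ± 24.1 and DCT cells 73.3 ± 27.7. Only PT above B cells (8 of 9 mice, exact adjusted p = 0.0469) and endothelial above CD-IC (9 of 9 mice, 0.0391) differed among these 10 neighbouring pairs.

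Outside PT cells, Ephx2 lay close to the level at which PT transcripts were found in other cell types. Summed over 14 PT markers, other cell types carried from 25.5% ± 11.5 (DCT) to 62.2% ± 7.77 (LOH) of the level in PT cells of the same mouse, and Ephx2 carried from 31.2% ± 12.4 (DCT) to 68.4% ± 23.7 (B cells) of its own PT level. Ephx2 lay above the markers in all 10 cell types, by 0.246 to 11.3 percentage points. In each the gap was less than the larger of the separate SDs of the markers and of Ephx2 between mice. The spread of the gap within mice was not computed. Against the 14 markers taken singly, Ephx2 exceeded all of them in LOH cells (65.0% against at most 64.0%), CD-PC (51.0% against at most 46.3%) and CD-IC (39.2% against at most 38.9%), and was exceeded by 1 to 8 of them in the other 7 types. Kap, Miox and the other PT markers are not genes of lymphocytes or vessels. Whether Ephx2 outside PT cells is expression of those cells or comes with PT transcripts cannot be told apart here.

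**Figure D2:**
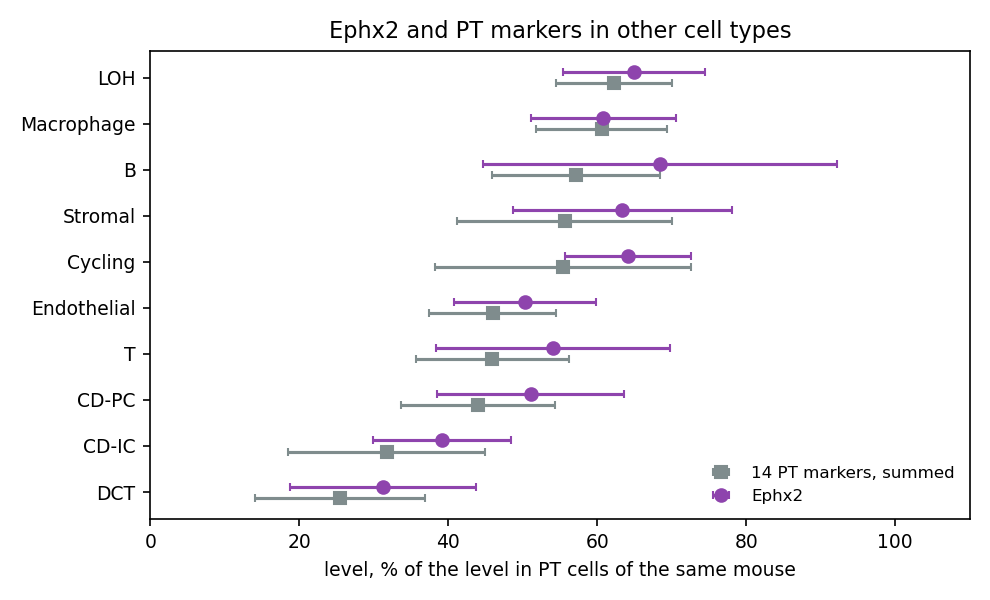
Level in each cell type as a percent of the level in PT cells of the same mouse, for 14 PT markers summed (squares) and Ephx2 (circles), with bars for the SD over 9 mice. Both sets are lowest in DCT cells (25.5% and 31.2%), and the highest are LOH cells for the markers (62.2%) and B cells for Ephx2 (68.4%).

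Within the proximal tubule, Ephx2 was higher in S3 cells, the straight part, than in S1 cells, the first convoluted part. Its mean was 268 ± 29.0 CPM in S3 cells, 196 ± 12.6 in S1 cells and 234 ± 32.2 in PT cells left unassigned, either because a cluster had fewer than 3 markers of any list at least 1.5-fold higher than in the other PT clusters or because 2 lists tied in it. S3 cells stood above the unassigned cells and those above S1 cells in 9 of 9 mice each (exact sign-flip permutation test, adjusted p = 0.00781). The unassigned cells were mixed, and their place in this order depended on the 2 tied clusters, of 17865 cells (5 markers each of S1 and of injured PT cells) and 10297 cells (4 each of S2 and S3). Without these clusters, an alternative chosen after seeing the data, the unassigned cells were at 261 ± 42.2 CPM and S3 cells did not pass against them (exact adjusted p = 0.461), while they stayed above S1 cells (exact adjusted p = 0.0156). By cluster, Ephx2 was at 238, 251 and 314 CPM in S3, 194 to 199 in S1 and 193 to 335 in the unassigned clusters, so the highest cluster was an unassigned one. For Ephx1 neither neighbouring pair of classes passed over the 9 mice, at 5.76 ± 5.81 CPM in S3, 4.73 ± 3.34 in S1 and 5.12 ± 3.797 in unassigned cells. These means pool groups with opposite orders. In CPM scaled within each class, S3 lay below S1 in every Control mouse (0.842 to 0.931 against 1.25 to 1.51). The same held in every AKI-CKD + EGT mouse (2.96 to 4.48 against 3.71 to 5.07). In every AKI-CKD mouse S3 lay above S1 (7.83 to 18.6 against 4.45 to 12.1). For Ephx1, S3 was not tested against S1 directly.

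Across treatment groups, Ephx1 in PT cells differed many-fold and the Ephx2 ranges overlapped. CPM compared between groups were scaled by TMM within each cell type (trimmed mean of M-values, which evens out composition). Ephx1 in PT cells was at 1.52, 1.18 and 1.05 CPM in Control mice, at 6.92, 11.3 and 14.6 in the AKI-CKD group and at 4.92, 3.41 and 3.57 in the EGT-treated group. The 3 groups did not overlap, with every AKI-CKD + EGT mouse between the Control and the AKI-CKD mice.

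As a description of the choice, AKI-CKD PT cells held 8.74 times the Ephx1 of Control (log2 difference 3.13 ± 0.29 SE). This SE does not allow for the choice of Ephx1 in the same mice. Of 18059 genes tested in PT cells, 0.0388% passed an adjusted p of 0.05 in this comparison and 11.2% were higher without overlap.

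In AKI-CKD + EGT PT cells Ephx1 was at 3.97 ± 0.83 CPM (SD, n = 3) against 10.9 ± 3.86 in AKI-CKD, a fold of 0.363 with a 95% interval of 0.242 to 0.544. The log2 difference of -1.46 ± 0.26 (SE) did not pass the correction over all genes in edgeR's quasi-likelihood test (Benjamini-Hochberg adjusted p = 0.216, unadjusted p = 0.000196). By this test 0% of the genes passed in PT cells, 14.8% had an unadjusted p under 0.05, and 10.8% were lower without overlap between the mice, so that a gap between the groups alone is common. DESeq2 called 436 genes in the same comparison and gave Ephx1 an adjusted p of 0.000234. Without the filter on low counts edgeR gave 0.00685, and without AKI-CKD + EGT mouse 1 it gave 0.0450.

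The AKI-CKD mice of this test are those in which Ephx1 was chosen for being high, so its interval and p are not independent of that choice. The same holds for the Control mice in the next comparison. It also holds for Ephx1 in every PT class and every other cell type below.

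Against Control, AKI-CKD + EGT PT cells held 3.17 times the Ephx1 (95% interval 2.07 to 4.86, log2 difference 1.67 ± 0.28 SE), with an edgeR adjusted p of 0.196. Here 0% of genes passed, 7.37% had an unadjusted p under 0.05 and 5.02% were higher without overlap. DESeq2 called 100 genes and gave Ephx1 an adjusted p of 4.4e-05, and edgeR without the filter gave 0.00765.

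**Figure D3:**
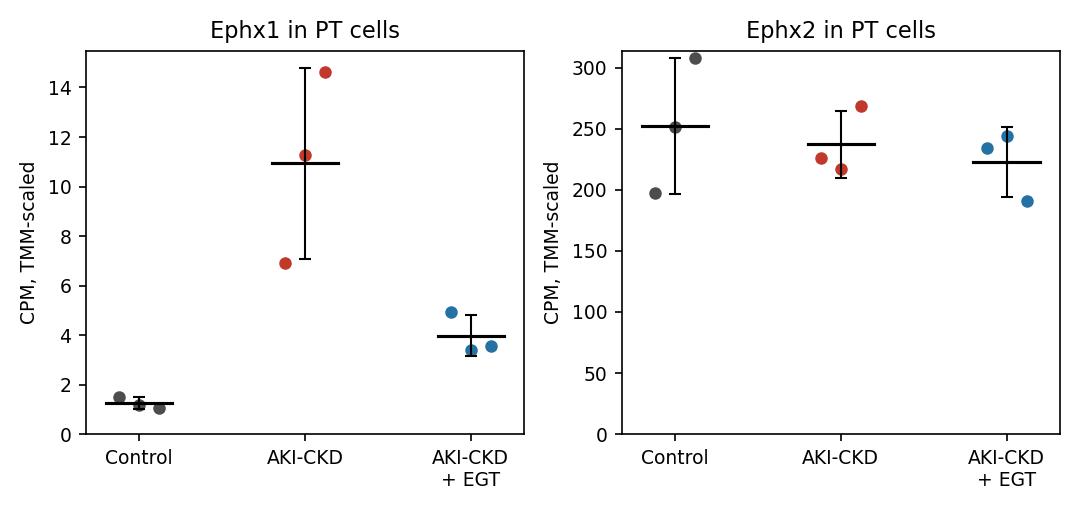
TMM-scaled CPM of Ephx1 (left) and Ephx2 (right) in PT cells, 1 point per mouse, with a bar at the group mean and whiskers for the SD (n = 3). For Ephx1 the groups are apart, at means of 1.25, 10.9 and 3.97 CPM, and for Ephx2 they overlap at 252, 237 and 223 CPM.

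Ephx2 in PT cells was at 197, 251 and 308 CPM in Control mice, 226, 217 and 269 in the AKI-CKD group and 235, 244 and 190 in the EGT-treated group. The groups overlapped throughout. The fold of AKI-CKD + EGT over AKI-CKD was 0.941 with a 95% interval of 0.714 to 1.24 (edgeR adjusted p = 0.852), and over Control 0.885 with 0.672 to 1.17 (edgeR adjusted p = 0.857). Changes within these bounds cannot be told from none in these 9 mice.

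The Ephx1 level in PT cells rested on few molecules. Control PT cells held 290 Ephx1 UMIs in 64259 cells, AKI-CKD PT cells 2270 in 57642 and AKI-CKD + EGT PT cells 708 in 42786. At least 1 UMI was seen in 269, 1836 and 602 cells, and at least 2 in 15, 294 and 72. The highest count in a single cell was 4, 10 and 6. Both the number of positive cells and the count within them were thus greatest in AKI-CKD.

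After every cell was thinned to 1000 UMIs, Ephx1 was detected in 0.127% ± 0.018 of Control, 0.982% ± 0.3005 of AKI-CKD and 0.450% ± 0.087 of AKI-CKD + EGT PT cells (unthinned 0.425%, 3.16% and 1.43%). For AKI-CKD + EGT against AKI-CKD and against Control the exact two-sided permutation test gave p = 0.1 each, the smallest that 3 against 3 mice allows. PT cells had the lowest share of all 11 cell types, and macrophages, the next, had 1.34% over the 9 mice. Ephx2 was detected in 21.6% ± 3.46, 19.7% ± 1.501 and 21.1% ± 1.24 of PT cells (exact p = 0.2 and 0.9 for the same comparisons), against 6.48% of DCT cells, 9.996% of T cells and 12.8% of LOH cells over the 9 mice, DCT cells having the lowest and LOH cells the highest share outside PT cells.

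Markers of the cell types richest in Ephx1 had no higher median in AKI-CKD PT cells than in the other groups. The 10 endothelial markers together made 5.41 to 11.5 CPM of PT cells in AKI-CKD mice against 6.19 to 8.59 in Control and 10.3 to 11.9 in AKI-CKD + EGT. The 11 stromal markers made 2.70 to 6.07, 3.53 to 7.33 and 6.42 to 23.4 CPM in the same order, and the 9 DCT markers 183 to 341, 288 to 506 and 443 to 1253. In each of these 3 lists the AKI-CKD median was the lowest of the groups. The 6 red-cell markers made 0.383 to 3.39 CPM in AKI-CKD, 64.3 to 122 in AKI-CKD + EGT and 1.25 to 201 in Control, so the cisplatin groups did not overlap. Stromal, DCT, LOH, CD-PC, CD-IC and urothelial or parietal markers were likewise higher in every EGT-treated than in every AKI-CKD mouse. The 12 markers of injured PT cells (Havcr1, Vcam1, Krt20 and others) made 487 to 783 CPM in AKI-CKD and 512.4 to 775 in AKI-CKD + EGT against 290 to 551 in Control, and the part of any of these lists in the Ephx1 level was not tested.

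By PT class, the AKI-CKD level over Control was 14.97-fold in S3 cells, 5.96-fold in S1 cells and 7.03-fold in the unassigned cells, again as a description. In S3 cells Ephx1 was at 0.894, 0.842 and 0.931 CPM in Control, 7.83, 13.7 and 18.6 in AKI-CKD and 4.48, 3.09 and 2.96 in AKI-CKD + EGT mice. AKI-CKD + EGT stood at 0.262 times AKI-CKD in S3 cells (95% interval 0.168 to 0.408), 0.542 times in S1 cells (0.338 to 0.869) and 0.403 times in the unassigned cells (0.263 to 0.618). None passed the correction (edgeR adjusted p = 0.177, 0.335 and 0.209), as 0% of all genes did in each class. The groups did not overlap in S3 and unassigned cells, where 10.3% and 10.4% of genes were lower without overlap, and they overlapped in S1 cells. The difference between classes was not tested.

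Outside PT cells, the order of the groups for Ephx1 was not the same in every cell type. In LOH cells it was at 16.0, 23.2 and 22.7 CPM in Control, 47.9, 45.9 and 50.2 in AKI-CKD and 29.2, 22.3 and 17.3 in AKI-CKD + EGT mice. The AKI-CKD mice lay above both other groups, and those overlapped. AKI-CKD + EGT stood at 0.463 times AKI-CKD (95% interval 0.337 to 0.636, edgeR adjusted p = 0.0790). The edgeR adjusted p was 0.0155 without AKI-CKD + EGT mouse 1 and 0.000141 without the filter on low counts, and DESeq2 gave 0.00803. Without batch integration the edgeR adjusted p was 0.0141, with LOH clusters of 11670 and 3248 cells in place of that of 9458. As in PT cells, these values reuse the AKI-CKD mice in which Ephx1 was chosen, so they are not independent of that choice. The same limit applies to DCT and collecting duct cells below. In LOH cells 0% of genes passed in either EGT comparison, 8.12% were lower without overlap against AKI-CKD, and 8.31% were higher without overlap in AKI-CKD against Control.

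DCT cells followed the same order. Ephx1 was at 22.4, 34.1 and 28.3 CPM in Control, 92.9, 112.5 and 81.8 in AKI-CKD and 63.5, 37.2 and 29.1 in AKI-CKD + EGT mice. AKI-CKD + EGT stood at 0.443 times AKI-CKD (0.296 to 0.664, edgeR adjusted p = 0.190), and the adjusted p was 0.0170 without AKI-CKD + EGT mouse 1 and 0.00053 without the filter on low counts. Here too 0% of genes passed in either EGT comparison, 9.71% were lower without overlap against AKI-CKD and 8.68% higher without overlap in AKI-CKD against Control.

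The collecting duct was divided. In CD-PC, Ephx1 was at 25.3, 23.8 and 36.4 CPM in Control, 40.4, 48.5 and 47.7 in AKI-CKD and 61.0, 85.4 and 38.0 in AKI-CKD + EGT mice. Both cisplatin groups lay above Control, and AKI-CKD + EGT overlapped AKI-CKD with the higher mean, at 1.34 times its level (95% interval 0.918 to 1.96, edgeR adjusted p = 0.483) and 2.13 times that of Control (1.43 to 3.15, edgeR adjusted p = 0.761, or 0.000807 without the filter on low counts). Of the genes tested in CD-PC, 0.00928% passed in each EGT comparison, 4.37% were higher without overlap in AKI-CKD + EGT than in Control, and 10.6% in AKI-CKD than in Control. In CD-IC the means were 31.9 ± 11.4, 56.4 ± 13.5 and 30.1 ± 12.3 CPM in Control, AKI-CKD and EGT-treated mice, and the groups overlapped. AKI-CKD + EGT stood at 0.515 times AKI-CKD (0.323 to 0.819, edgeR adjusted p = 0.114), where 1.9% of genes passed, and at 0.963 times Control, where 0% passed. That CD-PC and the other tubule cells differ in this was not tested. Ephx2 in these tubule cells had its lowest group mean in AKI-CKD. LOH cells held 171, 130 and 162 CPM in Control, AKI-CKD and EGT-treated mice, and DCT cells 77.5, 53.5 and 86.9. In CD-IC it was at 89.6, 74.1 and 115 CPM, and in CD-PC at 126, 99.97 and 132. PT cells were lowest in Ephx1, and the part of PT transcripts in the Ephx1 levels of these cells was not tested.

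**Figure D4:**
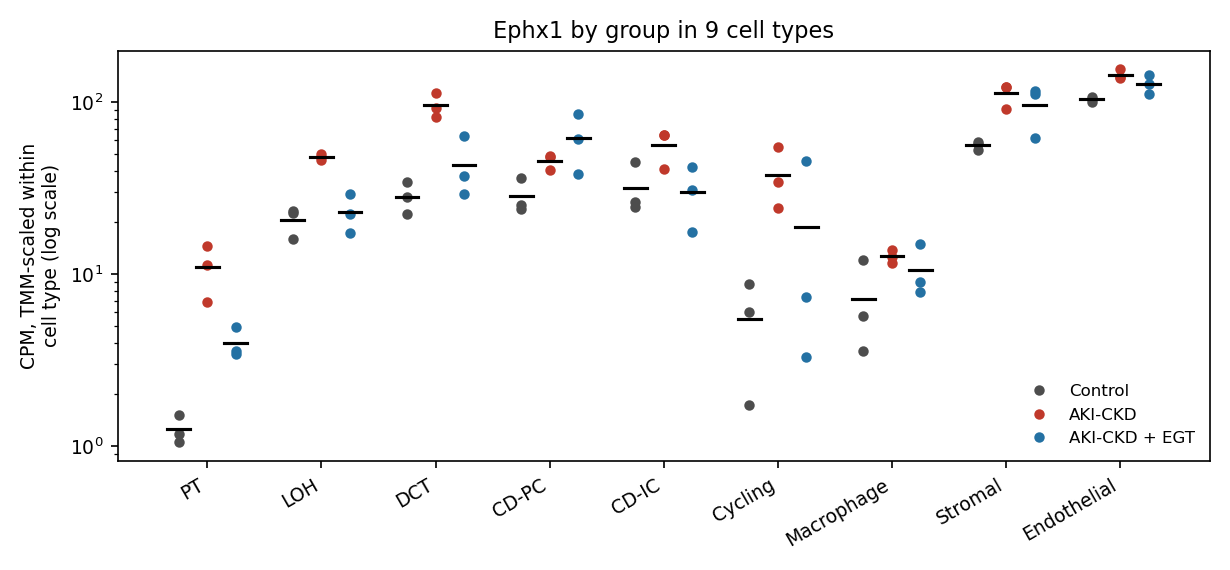
TMM-scaled CPM of Ephx1 on a log axis in the 9 cell types in which it passed the filter on low counts, 1 point per mouse and a bar at each group mean (n = 3). In PT, LOH and DCT cells the AKI-CKD mice lie above all AKI-CKD + EGT mice, while in CD-PC the AKI-CKD + EGT mean is the highest at 61.5 CPM.

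In endothelial and stromal cells, the richest in Ephx1 of the types compared, both cisplatin groups overlapped. Endothelial Ephx1 was at 100.1, 104.5 and 106.5 CPM in Control, 138, 155 and 139 in AKI-CKD and 145, 127 and 112 in AKI-CKD + EGT mice. Stromal Ephx1 was at 58.3, 52.97 and 56.7, then 91.8, 123 and 122, then 111, 117 and 62.1 CPM in the same order. In both cell types all 6 cisplatin-treated mice lay above all 3 Control mice. AKI-CKD + EGT stood at 0.882 times AKI-CKD in endothelial cells (0.698 to 1.11, edgeR adjusted p = 0.760) and 0.853 times in stromal cells (0.577 to 1.26, edgeR adjusted p = 0.732). Against Control the folds were 1.23 (0.970 to 1.56) and 1.72 (1.15 to 2.55), with edgeR adjusted p of 1.00 and 0.820. In endothelial cells 0.00967% and 0.0193% of genes passed against AKI-CKD and Control, 5.49% were higher without overlap in AKI-CKD + EGT than in Control and 7.69% in AKI-CKD than in Control. In stromal cells 0% and 0% passed, and the shares without overlap were 4.94% and 7.95%.

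In macrophages Ephx1 was at 7.14 ± 4.42, 12.7 ± 1.13 and 10.6 ± 3.83 CPM in Control, AKI-CKD and EGT-treated mice, with a fold of 0.837 between the cisplatin groups (0.432 to 1.62, edgeR adjusted p = 0.905). There 0.011% of genes passed against AKI-CKD and 0% against Control. In cycling cells the means were 5.50 ± 3.55, 37.9 ± 15.8 and 18.8 ± 23.4 CPM, and 1 AKI-CKD + EGT mouse at 45.7 CPM set its group mean while the other two were at 7.38 and 3.30. Both EGT comparisons had 0% of genes passing in cycling cells, and 7.47% of genes were higher without overlap in AKI-CKD than in Control. Ephx1 was too sparse to be tested in B and T cells, with 84 and 51 UMIs in all.

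Ephx2 passed in none of the 11 cell types. No edgeR adjusted p fell below 0.119 in AKI-CKD + EGT against AKI-CKD or 0.604 in AKI-CKD + EGT against Control, with 0% of genes passing in B and T cells in both comparisons. Against Control, AKI-CKD + EGT mice were lower without overlap in stromal cells, at 0.648 times (0.430 to 0.978, edgeR adjusted p = 0.820), and in T cells, at 0.645 times (0.433 to 0.962, edgeR adjusted p = 0.604), where 5.62% and 7.17% of genes were lower without overlap. In T cells AKI-CKD stood at 0.579 times Control, also without overlap, as did 7.9% of genes in that direction. Its lowest value relative to AKI-CKD was 0.676-fold in stromal cells (0.445 to 1.03) and its highest 1.67-fold in DCT cells (1.03 to 2.72). The highest folds, in DCT cells and CD-IC (1.61), were those of the types with the lowest PT-marker percentage. Whether the PT-marker level there moved with group was not tested.

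In the sum of all kept cells, Ephx1 was at 5.13, 5.59 and 5.02 CPM in Control, 12.9, 19.8 and 20.5 in AKI-CKD and 12.3, 11.4 and 11.1 in AKI-CKD + EGT mice. The 3 groups did not overlap. This is the sum in which Ephx1 was chosen, where AKI-CKD held 3.37 times the Control level (0.0199% of genes passed and 8.71% were higher without overlap). Both comparisons of AKI-CKD + EGT use the AKI-CKD or Control values of that choice, so they are given with no p. The EGT-treated mice stood at 0.656 times AKI-CKD (0.507 to 0.848), where 0.00496% of genes passed and 9.73% were lower without overlap. Against Control it stood at 2.21 times (1.70 to 2.87), where 0.00496% passed and 7.08% were higher without overlap. AKI-CKD + EGT mouse 3 stood apart in makeup, with 63.0% PT and 14.2% LOH cells against 80.1% to 90.3% and 2.45% to 5.39% in the other mice. Cell makeup and the level per cell cannot be told apart in this sum.

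Within PT cells, Ephx1 was higher in those with a transcript of Cdkn1a, the p53-induced cell-cycle inhibitor p21. In cells thinned to 1000 UMIs, Ephx1 was at 52.9, 44.9 and 44.6 CPM in Cdkn1a-positive cells of AKI-CKD mice against 5.46, 8.67 and 11.3 in the rest. In AKI-CKD + EGT mice the pairs were 35.8 against 4.34, 40.9 against 3.26 and 30.8 against 4.71. In Control mice, with 0, 2 and 3 Ephx1 UMIs in the Cdkn1a-positive cells, they were 0 against 1.48, 10.9 against 1.20 and 42.9 against 1.07. A count of 0 in the first of these allows up to 17.8 CPM, counting error only.

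Over the 9 mice the means were 33.7 ± 17.4 CPM with and 4.61 ± 3.505 without a Cdkn1a UMI, and the Cdkn1a-positive cells were higher in 8 of 9 mice (mean log2 difference 2.37 ± 1.56 SD, exact sign-flip permutation test, adjusted p = 0.0156 over 2 partners). Without thinning they were higher in 9 of 9 mice, at 17.2 ± 9.50 against 3.70 ± 2.74 CPM (exact adjusted p = 0.00781). Split by a UMI of Ephx2, the means were 5.60 ± 4.57 and 5.46 ± 4.18 CPM, with 5 of 9 mice higher and an exact adjusted p of 0.934, and without thinning 3 of 9 mice were higher (mean log2 difference -0.18 ± 0.36 SD, exact adjusted p = 0.172).

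The Cdkn1a-positive cells were 1.81% of Control, 11.1% of AKI-CKD and 5.45% of AKI-CKD + EGT PT cells before thinning. They held 14.8%, 44.8% and 29.1% of the Ephx1 UMIs of PT cells, so most lay in cells where no Cdkn1a UMI was captured. By PT cluster, pooled over mice, Cdkn1a was highest at 69.15 CPM in a cluster with Ephx1 at 5.02. It was lowest at 15.6 CPM in a cluster with Ephx1 at 6.01. In the cells with no Cdkn1a UMI, Ephx1 ran from 0.876 to 1.48 CPM in Control, 4.32 to 9.25 in AKI-CKD and 2.78 to 3.82 in AKI-CKD + EGT mice. At a median of 2810 UMIs per PT cell, a cell can express Cdkn1a without a captured UMI. The cells with no Cdkn1a UMI are therefore not known to lack it.

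**Figure D5:**
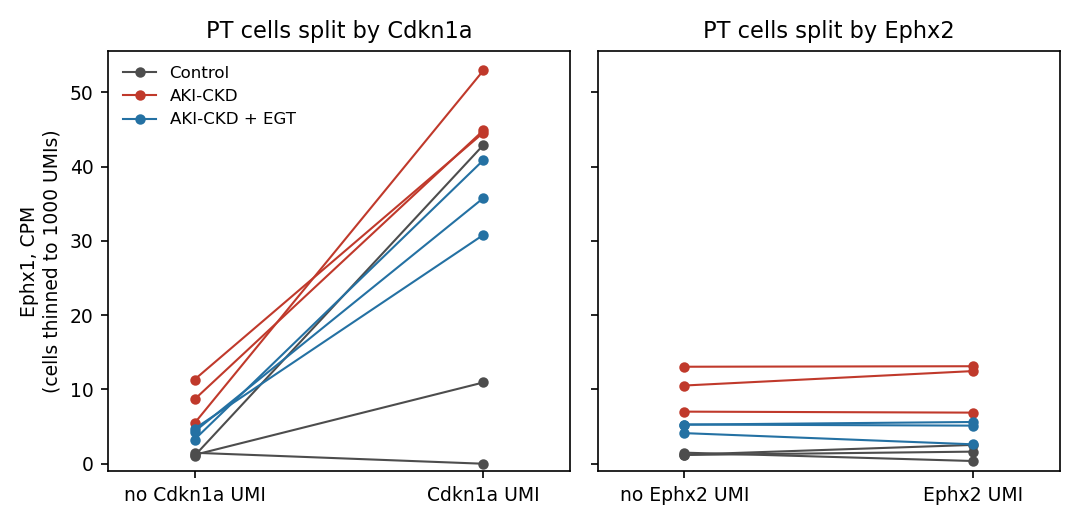
Ephx1 CPM in PT cells without and with a UMI of Cdkn1a (left) or Ephx2 (right), cells thinned to 1000 UMIs, 1 line per mouse. Lines rise in 8 of 9 mice for Cdkn1a, from a mean of 4.61 to 33.7 CPM, and in 5 of 9 for Ephx2, with means of 5.46 and 5.60 CPM.

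The other epoxide hydrolases Ephx3 and Ephx4 were low in PT cells, and Lta4h was detected in every cell type. Ephx3, which acts on fatty acid epoxides of the skin barrier, was at 22.8 ± 12.5 CPM in stromal cells and at most 0.356 in any other type, with 57 UMIs in all PT cells. Ephx4 had 18 UMIs in all PT cells, was not tested there, and was highest in endothelial cells at 1.501 ± 1.16 CPM. Lta4h, which turns the epoxide leukotriene A4 into leukotriene B4, ran from 21.7 CPM in PT cells to 40.5 in T cells. In PT cells Lta4h was at 20.5 ± 2.09, 24.1 ± 0.60 and 21.0 ± 4.17 CPM in Control, AKI-CKD and AKI-CKD + EGT. The AKI-CKD + EGT level was 0.872 times that of AKI-CKD (95% interval 0.697 to 1.09, edgeR adjusted p = 0.545) and 1.03 times Control (0.821 to 1.28, edgeR adjusted p = 0.969).

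Genes around the epoxide pathway were read from 11 lists with 240 genes tested in PT cells. Of these, 0 passed edgeR's adjusted p in AKI-CKD + EGT against AKI-CKD and 0 against Control, against 0% of all genes. DESeq2 called 11 and 3 of them, out of 436 and 100 calls among the 30394 genes it was run on. In AKI-CKD against Control 3 rose and 0 fell, all 3 from the list of p53 targets, out of 7 calls among all 18059 genes tested (0.0388%).

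Among the suppliers of Ephx2's substrates, 11 epoxygenases of arachidonic acid were tested. Their median log2 difference was -0.13 in AKI-CKD + EGT against AKI-CKD and 0.04 against Control, beside -0.01 and 0.00 for all genes. Cyp2j5, an abundant renal epoxygenase, was at 558 ± 110.3, 568 ± 80.3 and 518 ± 98.2 CPM in Control, AKI-CKD and AKI-CKD + EGT. Cyp2j13, its relative, was at 228 ± 44.3, 201 ± 49.3 and 180 ± 9.04.

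The 12 omega-hydroxylases, which send arachidonic acid toward 20-HETE, had medians of -0.12 and 0.14 in the same comparisons. The male-biased Cyp4a12a was at 70.7 ± 19.9, 42.2 ± 8.06 and 69.5 ± 7.205 CPM, a fold of 1.65 for AKI-CKD + EGT over AKI-CKD with an edgeR adjusted p of 0.234. Cyp4a31 was at 75.7 ± 9.15, 82.4 ± 20.1 and 65.7 ± 22.3 CPM. The 17 genes of arachidonic acid release and other eicosanoid enzymes had medians of 0.25 and 0.21, with Ptges3, a prostaglandin E synthase and Hsp90 co-chaperone, at 0.993 and 0.952 times, and the phospholipase Pla2g12a at 0.778 and 1.00 times.

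Among Ephx1's neighbours in the endoplasmic reticulum, 15 microsomal partners had medians of -0.10 and -0.19. Cyb5a, the cytochrome b5 that donates electrons to P450 enzymes, stood at 0.899 and 0.871 times AKI-CKD and Control, and Cyp2e1, a P450 that activates small toxicants, at 0.846 and 0.678 times. The 28 conjugating enzymes had medians of -0.15 and 0.08. Gsta2, a glutathione transferase, was at 470 ± 93.4, 827 ± 89.4 and 541 ± 180.9 CPM in Control, AKI-CKD and EGT-treated mice, at 0.654 times the AKI-CKD level (edgeR adjusted p = 0.288). The glucuronosyltransferase Ugt2b38 stood at 1.02 and 0.878 times.

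For the inducers, 20 Nrf2 targets had medians of -0.13 and 0.03. The ferritin genes Fth1 and Ftl1 stood at 0.805 and 0.696 times AKI-CKD and at 0.866 and 0.934 times Control. The 31 PPAR alpha targets, a pathway that drives fatty acid oxidation, had medians of -0.19 and -0.08. The thiolases Acaa1b and Acaa2 stood at 0.834 and 0.804 times AKI-CKD. The 48 peroxisomal proteins, which share an organelle with Ephx2, had medians of -0.11 and -0.09, with the peroxiredoxin Prdx5 at 0.815 times and the acyl-CoA synthetase Slc27a2 at 1.07 times AKI-CKD. The 16 nuclear receptors and xenobiotic sensors had medians of 0.02 and 0.02, with Hnf4a at 1.03 and Nr1h4, the bile acid receptor FXR, at 1.00 times AKI-CKD.

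The 40 p53 targets had the median farthest from 0 of the 11 lists in AKI-CKD against Control, and in both EGT comparisons they were nearly level in size with the eicosanoid enzymes above. Their median log2 difference was 0.44 in AKI-CKD against Control with 32 of 40 above 0, -0.26 in AKI-CKD + EGT against AKI-CKD with 6 of 40 above 0, and 0.21 against Control with 30 of 40 above 0. Among all genes 47.9%, 48.8% and 49.8% were above 0. Low shares above 0 in AKI-CKD + EGT against AKI-CKD were found in other lists too, at 5 of 31 PPAR alpha targets, 11 of 48 peroxisomal proteins, 5 of 20 Nrf2 targets and 8 of 28 conjugating enzymes. These 3 comparisons share mice in pairs, and the lists were chosen with earlier results of these mice known. The medians and counts are therefore a description and not independent evidence.

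In AKI-CKD PT cells 3 p53 targets rose over Control, which is not independent evidence since the list was drawn up with results on these mice known. Cdkn1a went from 7.54 ± 3.21 to 86.5 ± 38.5 CPM (edgeR adjusted p = 0.0401), Phlda3, an Akt inhibitor, from 1.67 ± 0.64 to 15.6 ± 6.07 (edgeR adjusted p = 0.0139), and Psrc1, a spindle protein, from 0.228 ± 0.025 to 1.31 ± 0.22 (edgeR adjusted p = 0.0275). These calls ended, to 0 of 3, when only the 6 mice compared were fitted, with the replicate number as a block, and when Control mouse 2 or 3 or AKI-CKD mouse 2 or 3 was left out. The most abundant p53 targets in the list, Dcxr and Bax, stood at 0.794 and 0.701 times AKI-CKD in AKI-CKD + EGT (edgeR adjusted p = 0.402 and 0.252).

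The patterns most like the 2 genes over the 9 mice in PT sums were sought among 3589 genes by Pearson's r of log2 CPM. For Ephx1 they were Espn (r = 0.947), Ctsz (0.933), Polr2f (0.916), Ptdss2 (0.912) and Tceal9 (0.912). For Ephx2 they were Upb1 (0.990), Tmem229a (0.977), Lap3 (0.976), Sypl (0.9751) and Dynlt3 (0.974). Ephx1 and Ephx2 themselves had r = -0.160. The 9 points share library, depth and group, and these are the highest of many values, so no p is given.

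Across the 11 cell types, among 5133 genes, Ephx1 was most like Cd200 (r = 0.959), Crip2 (0.914), Zbtb4 (0.911), Myo1e (0.909) and Cd24a (0.906). Ephx2 was most like Eci3 (0.994), Tmem174 (0.991), Khk (0.990), Pepd (0.989) and Proc (0.988). The 11 points share the PT transcripts found in every cell type.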

How the data were processed

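Single-cell RNA was measured in kidney tissue from each of 9 mice, on a droplet platform. The authors deposited 1 matrix of raw UMI counts per mouse (PISA, genome build GRCm39 per the labels), with no normalization, and gene symbols were used as given. The counting strand and annotation version are not given in the sources used here.

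From these counts, the study's limits on barcodes were applied (minimum 1000 UMIs, minimum 500 genes, maximum 15% of UMIs from mitochondrial genes), which left 196925 of 216680 barcodes, more than the study retained. Cells were clustered with Scanpy 1.11.5 (2000 variable genes, 30 components, Harmony by library, resolution 1.1) and named from markers. Podocytes and 1 unnamed cluster were too few per mouse to compare. Doublets were not removed: Scrublet marked at most 1 cell per library and so did not work, and leaving out the top 6% of scores was tried instead. Cell types rebuilt this way may differ from those of the study.

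For each cell type, the counts of a mouse were added up and went into edgeR 4.0.16 (filterByExpr, TMM, quasi-likelihood test on group over all 9 mice), adjusted by Benjamini-Hochberg over all genes. DESeq2 1.42.0 was an alternative. Thinning drew 1000 UMIs per cell. The tests were tried on simulated counts first. Each mouse is 1 replicate. Intervals of pooled counts cover counting error only. Named were Ephx1, Ephx2, the other epoxide hydrolases, and of each list the genes that passed or otherwise the 2 most abundant, and the 5 genes most like each member. The members and lists were chosen with earlier results of these data known. The start region came from RefSeq on GRCm38.p6, a build older than that of the counts, and no coordinate was carried between them. For Ephx2 no start region was used here.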

Additional observations from a re-analysis of the deposited data

Results flagged for a closer look

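Among cells outside the cell-type comparisons, pooled Ephx1 was above Control in podocytes of AKI-CKD mice. It was also above Control in cells over the mitochondrial limit of both cisplatin-treated groups. Podocytes are part of the sum of all kept cells in which Ephx1 was chosen. Cells over the limit entered only the alternative without that limit. AKI-CKD beside Control is the contrast of the choice, so these values are a description. Pooled podocytes were at 146 CPM in AKI-CKD (48 UMIs, 95% Poisson interval 107 to 193) against 75.4 in Control (31 UMIs, 51.2 to 107.0) and 52.4 in AKI-CKD + EGT (42 UMIs, 37.8 to 70.8). Cells over the mitochondrial limit were at 11.4 CPM in AKI-CKD (9.10 to 14.2) and 11.6 in AKI-CKD + EGT (10.2 to 13.1) against 5.88 in Control (4.71 to 7.24). By mouse, podocytes were at 45.1 to 144 CPM in Control, 118 to 196 in AKI-CKD and 30.9 to 278 in AKI-CKD + EGT, so the groups overlapped. The AKI-CKD + EGT value turned on single mice, at 91.7 CPM pooled without mouse 3, which held 62.9% of its podocytes, and 32.6 without mouse 1, a check added after seeing the data. Of the cells over the mitochondrial limit, 75.9% of those of Control came from mouse 1 (6.05 CPM) and 70.1% of those of AKI-CKD + EGT from mouse 3 (12.03 CPM), so the pooled values are largely those of single libraries. By mouse these cells were at 4.71 to 9.68 CPM in Control, 9.35 to 14.7 in AKI-CKD and 10.7 to 12.03 in AKI-CKD + EGT. The intervals above are pooled over the mice of a group, so they cover counting error only and the groups were not tested against each other.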

How the results depend on the processing

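Of the values named, Ephx1 in PT cells kept its direction under every alternative in all 3 comparisons. In AKI-CKD + EGT against AKI-CKD its log2 difference was -1.48 with DESeq2 and -1.50 without the filter on low counts, both past the threshold, and -1.71 to -1.20 with each mouse left out, where it passed without AKI-CKD + EGT mouse 1. Against Control it passed at 1.66 and 1.65 with the same settings. Both comparisons reuse the AKI-CKD or Control mice in which Ephx1 was chosen, so these calls are not independent of that choice. In all kept cells, where Ephx1 was chosen, the same 2 settings gave 1.13 and 1.12 as a description, with no test. The replicate block gave -1.46 in PT cells (edgeR adjusted p = 0.423). Same-numbered mice deviated together in no regular way (correlations of -0.456 to 0.343), which with 3 mice per group cannot exclude a pairing. The block changed no call of Ephx1 or Ephx2 in the comparisons of AKI-CKD + EGT. In AKI-CKD against Control it left 0 genes called in PT cells (7 without it) and 0 in all kept cells (4 without it). With each mouse left out, the Ephx2 difference from AKI-CKD crossed 0 in PT cells (-0.16 to 0.024) and in all kept cells (-0.27 to 0.0089). AKI-CKD against Control crossed 0 for Ephx2 in the same cells (-0.24 to 0.086 and -0.27 to 0.057). AKI-CKD + EGT against Control also crossed 0, in LOH cells for Ephx1 (-0.079 to 0.31, and -0.24 without Harmony) and Ephx2 (-0.13 to 0.028, and 0.15 without Harmony), and for Ephx2 in CD-PC (-0.12 to 0.28) and DCT cells (-0.012 to 0.41). Listed genes called in PT cells numbered 11, 3 and 16 with DESeq2 and 7, 2 and 10 without the filter in AKI-CKD + EGT against AKI-CKD, against Control and AKI-CKD against Control, where 0, 0 and 3 were called. In the last comparison 0 were called with the replicate block and with only the 6 mice compared, and 0 to 4 with each mouse left out, against 0 to 3 in the first. All genes called in the first rose from 0 to 176 without AKI-CKD + EGT mouse 1. Over the 3 comparisons in the same order, DESeq2 called 436, 100 and 185 of all 30394 genes, and edgeR without the filter 227, 53 and 85. Of the 20 neighbouring pairs 5 differed, 0 did after leaving out top Scrublet scores and 0 after thinning (2 of the 20 pairs when neighbours were ranked anew on the thinned levels), and 0 to 4 with each mouse left out, where 8 mice limit the test. Of the 2 neighbouring PT classes that differed, 1 did without the clusters whose marker lists tie, an alternative added after seeing the data. The share of PT cells with Ephx2 in AKI-CKD + EGT minus Control turned to 0.810 percentage points unthinned and -2.05 to 1.35 with each mouse left out, and Ephx1 by an Ephx2 UMI ran from -0.11 to 0.086 with each mouse left out and was -0.18 unthinned. The causes were not tested. Alternatives were run in PT, LOH, CD-PC and DCT cells and all kept cells only. Ephx1 in Control PT cells rests on 290 UMIs.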
